A study of Mus musculus with 4 samples.

Results

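PDGFRαhi fibroblasts (FB) of the gut are stromal neighbors of the epithelium and a source of BMP, WNT and growth factor ligands. In colon, the cells examined here were PDGFRαhi FB with high *Cd9*, which encodes a tetraspanin of the plasma membrane, and without *Thbd*, which encodes thrombomodulin (CD141), a receptor for thrombin. To find them, colonic cells with at least 500 genes, at least 1000 UMIs (unique molecular identifiers, 1 per captured RNA molecule) and at most 10% mitochondrial UMIs were gated on at least 1 UMI for 3 or more of the 6 genes *Pdgfra*, *F3*, *Sox6*, *Foxl1*, *Bmp7* and *Tmem158*. Of the gate cells, those with *Cd9* at 1000 or more UMIs per 1000000 UMIs of the cell and with 0 UMIs of *Thbd* were chosen by these values and are called Cd9hi cells. They numbered 597, which is 71 of 937 gate cells in colon replicate 1 and 526 of 3573 in colon replicate 2, out of 15119 colonic cells and 32216 cells of the whole series that passed the filter.

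The cells came from untreated female C57BL6/Nrj mice aged 8 to 10 weeks, from 2 independent experiments with 3 mice each, whose cells were pooled, so that a library stands for a pool and not for a mouse. Lamina propria of small intestine and of colon, stripped of its muscle coat, was sorted for live Itgb1+ cells that lacked CD45, Ter119, CD31, BP3, EpCAM and L1CAM, and each intestine gave 2 droplet libraries. All groups compared here are classes of cells inside these untreated libraries, and no genotype or treatment differs between them. Replicate 1 libraries held fewer and deeper cells than replicate 2 libraries, with a median of 12715 and 4974 UMIs per Cd9hi cell and of 10823.5 and 4221 UMIs per other gate cell in colon replicates 1 and 2. In all, 80 barcodes were shared by a pair of libraries, and none by the 2 colon libraries.

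Subepithelial FB keep the epithelium in order along the crypt. WNT ligands, R-spondins and BMP antagonists sustain stem cells at the crypt base, whereas BMP ligands promote maturation towards the surface. EGF family ligands such as neuregulin 1, fibroblast growth factors and prostaglandin E2 act on epithelial growth and repair. Among these FB, expression of smooth muscle actin (*Acta2*) is used to mark cells called myofibroblasts, and thrombomodulin and CD9 are surface proteins by which such cells can be told apart in flow cytometry.

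The values that selected the cells are given as a description. *Cd9* was at 1770 and 1641 CPM (UMIs of a gene per 1000000 UMIs, summed over a class of cells in a library, for colon replicates 1 and 2) in Cd9hi cells, and at 587 and 516 CPM in the other gate cells. Single Cd9hi cells ran from 1003 to 4755 CPM in replicate 1 and from 1001 to 5372 in replicate 2. The threshold cut through a continuum, since 6 and 62 Cd9hi cells lay between 1000 and 1100 and 9 and 80 *Thbd*-negative gate cells lay between 900 and 1000, with 979 and 999 as the highest values outside. *Thbd* was at 755 and 430 CPM in the other gate cells, of which 756 and 2144 had at least 1 UMI (*Thbd*+ gate cells) and 110 and 903 had none (Cd9lo *Thbd*- gate cells). *Cd9* was not particular to the gate, and 28.7% and 21.9% of the colonic cells outside it also reached 1000 CPM, against 21.2% and 22.8% inside it.

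The label of PDGFRαhi FB was checked against markers of other cells. The gate genes selected the cells, so their values inside and outside the gate are a description and no check of the label. *Pdgfra*, the receptor for which these FB are named, was detected in 93.0% and 95.4% of Cd9hi cells and *F3* (tissue factor) in 91.5% and 81.9%. *Pdgfra* was at 1032 and 694 CPM in Cd9hi cells and at 111 and 148 CPM in colonic cells outside the gate. Of the gate genes, *Sox6*, a transcription factor gene, and *Tmem158* were lower in Cd9hi cells than in the other gate cells. *Sox6* was at 22.4 and 45.1 CPM in Cd9hi cells and at 86.2 and 210.3 CPM in the other gate cells. *Tmem158* was at 516 and 521 CPM against 667 and 688 CPM. *Foxl1*, a telocyte marker, was at 134 and 98.3 CPM against 67.6 and 68.1 CPM.

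Markers of immune, glial and plasma cells were at or near 0 in Cd9hi cells. The 6 glial markers summed to 0 and 0.739 CPM, the 6 immune markers to 4.47 and 1.85 CPM and the 6 plasma cell markers to 2.24 and 15.2 CPM, with 6 and 5, 3 and 2, and 4 and 1 of them at 0 UMIs. Plasma cell markers were at 15.7 and 320.2 CPM in the other gate cells, and 3 of 3 tested fell (*Igkc*, *Jchain* and *Igha*). Markers of other FB were also lower in Cd9hi cells. The 7 markers of CD81+ FB summed to 120 and 143 CPM against 553 and 458 CPM in the other gate cells, and those of Fgfr2+ and CD90+ FB to 4428 and 3623 CPM against 7986 and 5939 CPM. The 6 smooth muscle markers summed to 517 and 146 CPM, against 327 and 251 CPM, and so differed in direction between the libraries. Markers of interstitial cells of Cajal were higher, with a sum over 4 genes of 139 and 81.0 CPM against 34.9 and 35.6 CPM, nearly all of it *Ano1*, a chloride channel (137.6 and 79.5 CPM against 34.7 and 33.4 CPM), and *Kit* was among the 2 genes at 0 UMIs in replicate 1. The 8 epithelial markers summed to 35.8 and 24.0 CPM against 21.5 and 5.75 CPM, of which the keratin *Krt18* made up 31.3 and 21.1 CPM (0.205 and 1.28 CPM in the other gate cells, log2 fold change 4.92 ± 0.50, edgeR adjusted p = 1.32e-05), and 5 and 4 of the 8 were at 0 UMIs. The part of other FB, or of these cells, within the gate in the results that follow was not tested directly, but the same fit was run with 4 and with 5 of the 6 gate genes required, as given below.

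Upstream sequence is shown for the gene that defines the cells (*Cd9*), for *Spp1* and *Tspan8*, which led the rises described below, and for *Fgf7*, a growth factor gene used to describe them. Each run gives the 250 bases before the RefSeq start nearest to the annotated 5′ end of the gene (GRCm38.p6), 5′ to 3′ on the gene's strand. Capitals mark matches on either strand to CTTTGA (TCF/LEF), TGANTCA (AP-1), TGTTTA (FOX) or TGACGT (cyclic AMP response element).
*Cd9* (chr6:125494761-125495010, minus strand): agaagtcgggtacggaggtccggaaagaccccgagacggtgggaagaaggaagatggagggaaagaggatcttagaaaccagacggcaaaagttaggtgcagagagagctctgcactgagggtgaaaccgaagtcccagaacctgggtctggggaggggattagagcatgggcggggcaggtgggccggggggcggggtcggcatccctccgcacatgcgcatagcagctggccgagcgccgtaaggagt
*Spp1* (chr5:104434861-104435110, plus strand): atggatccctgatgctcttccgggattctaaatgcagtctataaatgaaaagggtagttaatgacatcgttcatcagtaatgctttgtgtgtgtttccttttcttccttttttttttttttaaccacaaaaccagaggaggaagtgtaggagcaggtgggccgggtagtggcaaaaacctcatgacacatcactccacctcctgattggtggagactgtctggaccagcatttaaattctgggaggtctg
*Tspan8* (chr10:115817034-115817283, plus strand): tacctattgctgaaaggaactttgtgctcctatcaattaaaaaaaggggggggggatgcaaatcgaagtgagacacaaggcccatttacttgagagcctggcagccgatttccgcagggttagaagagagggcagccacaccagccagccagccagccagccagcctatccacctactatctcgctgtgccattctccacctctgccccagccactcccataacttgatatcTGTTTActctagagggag
*Fgf7* (chr2:126034408-126034657, plus strand): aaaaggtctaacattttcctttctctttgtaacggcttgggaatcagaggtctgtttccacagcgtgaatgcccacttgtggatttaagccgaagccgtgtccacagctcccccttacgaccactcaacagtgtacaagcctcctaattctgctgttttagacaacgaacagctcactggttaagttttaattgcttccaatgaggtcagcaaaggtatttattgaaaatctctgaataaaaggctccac
The only match in these 4 windows was a FOX motif in that of *Tspan8*. This window lies before the RefSeq start but inside the gene as GENCODE places it (chr10:115816832-115849893). That of *Cd9* overlaps the 5′ end of its GENCODE gene. Over all 27025 genes with such a window, 14.1% held the TCF/LEF motif, 6.87% the AP-1 motif, 12.03% the FOX motif and 6.56% the cyclic AMP motif. Of the 12 leading rises, 10 had an entry, of which 1 held the TCF/LEF, 1 the FOX and 0 the AP-1 or the cyclic AMP motif. *Lgr5* and *Nrg1* had no entry.

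To ask what else sets Cd9hi cells apart, UMI counts were summed per class and library, and Cd9hi cells were compared with all other gate cells of the same library with the quasi-likelihood test of edgeR, with library as a block. The 8 genes of the rule were left out of the tests. Of 11924 genes, 934 were higher (7.83%) and 1025 lower (8.6%) in Cd9hi cells at a Benjamini-Hochberg adjusted p under 0.05. Of these 1959 genes, 1952 (99.6%) changed in the same direction in both libraries. The fit, made on the same libraries, favors genes that change alike in both, so this share is no check of the calls. Without library as a block, edgeR called 0 genes (942 at an unadjusted p under 0.05). DESeq2 with the same block called 738 genes. When each cell was first thinned to 2000 UMIs, 718 genes passed. In a fit of all 4 libraries of the series 1721 genes passed, 623 without colon replicate 1 and 364 without colon replicate 2. Of 120 named calls, 68 of the 118 that could be fitted held without colon replicate 1 and 55 of 117 without replicate 2, with no change of sign. *Ereg*, *Ptgs2*, *Ptgs1*, *Pla2g4a*, *Wnt5a*, *Bmp2*, *Bmp4*, *Nbl1*, *Igf1*, *Cxcl10*, *Cxcl14*, *Acta2*, *Tnc*, *Ogn*, *Dcn*, *Lum*, *Fn1*, *Lama4*, *Foxf1*, *Nr4a1* and *Ier3* lost their call without either, as did *Myl9*, *Mylk*, *Des*, *Synm*, *Col18a1*, *Hspg2*, *Wnt2*, *Dkk2*, *Bst2*, *Ifit1*, *Tspan11*, *Hnmt*, *Qprt*, *Cxcl5*, *Sema3b* and *Ackr4*. *Nrg1*, *Wnt2b*, *Vegfa*, *Il15*, *Il1rn* and *Isg15* lost it without replicate 1 only, and *Smoc2*, *Smtnl2*, *Cers6*, *Hpse2*, *Adam33*, *Sv2b*, *Alms1*, *Igkc*, *Jchain*, *Igha*, *Chrd*, *Il33*, *Il11*, *Ptger4*, *Lama2*, *Cd82*, *Ebf1* and *Ifit3* without replicate 2 only. Since each library is a pool, the p-values do not measure the spread between mice. They rest on 2 pools and on an estimate of the spread that the fit shares across genes.

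Among genes with at least 50 UMIs per library in Cd9hi cells, those with the largest rise included secreted, surface and signaling genes. *Spp1* (chr5:104435118-104441050), which encodes the matrix protein osteopontin, was at 187 and 454 CPM in Cd9hi cells and at 2.97 and 13.7 CPM in the other gate cells (log2 fold change 5.35 ± 0.17 SE, n = 2 libraries, edgeR adjusted p = 1.11e-10). The classes did not overlap, but replicate 2 was the higher of the 2 libraries in both. *Lgr5* (chr10:115450311-115587780), the receptor for R-spondins best known from epithelial stem cells and rising beside *Krt18* as given above, was at 60.4 and 28.8 CPM against 0.512 and 1.92 CPM (4.92 ± 0.61, adjusted p = 0.00885 in edgeR). *Pcdh20*, a protocadherin, followed at 104 and 54.7 CPM against 6.04 and 4.40 CPM (3.89 ± 0.18).

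*Lef1* (chr3:131110471-131224356), a transcription factor of canonical WNT signaling, was at 91.7 and 119 CPM in Cd9hi cells and at 11.9 and 19.7 CPM in the other gate cells (2.76 ± 0.12, edgeR adjusted p = 2.07e-12). *Tspan8*, a tetraspanin like *Cd9*, was at 123 and 227 CPM against 11.3 and 32.4 CPM (3.07 ± 0.14). *Lpar3*, a receptor for lysophosphatidic acid, rose from 8.70 and 9.37 to 107 and 57.7 CPM, and *Lipg*, endothelial lipase, from 20.7 and 34.8 to 185 and 167 CPM. *Smox*, which oxidizes spermine, was at 309 and 183 CPM against 26.9 and 31.5 CPM. The remaining leading rises were *Slco4a1*, an organic anion transporter, *Lrrc8d*, a subunit of volume-regulated anion channels, *Rab3b*, a GTPase of secretory vesicles, and *Paqr5*, a progestin receptor, with log2 fold changes from 2.72 to 3.56. These 12 genes were highest in Cd9hi cells of the 3 classes in each library.

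*Fgf7* and *Il1rl1*, by which these cells had been described, did not pass the test across both libraries. *Fgf7* (chr2:126034658-126091185), keratinocyte growth factor, was at 1139 and 447 CPM in Cd9hi cells and at 82.0 and 64.1 CPM in the other gate cells, which is 13.9-fold and 6.98-fold higher (log2 fold change 3.33 ± 0.35, edgeR adjusted p = 0.0568). It was called under 12 of 15 alternatives, with a log2 fold change from 2.87 to 3.84 and adjusted p between 3.75e-272 and 0.273. *Il1rl1* (chr1:40429570-40465415), which encodes the IL-33 receptor ST2, was at 700 and 247 CPM against 41.5 and 47.0 CPM, or 16.9-fold and 5.24-fold higher (3.25 ± 0.78, edgeR adjusted p = 0.327). It was called under 6 of 15 alternatives, with a log2 fold change from 2.46 to 4.12 and adjusted p from 4.86e-226 to 0.644. Both genes were thus higher in Cd9hi cells in both libraries, with the larger fold in replicate 1. *Il33*, the ligand of ST2, was low in Cd9hi cells, at 3.36 and 3.70 CPM against 13.5 and 16.1 CPM (-2.04 ± 0.33, edgeR adjusted p = 9.31e-05). It was at 49.5 and 68.0 CPM in colonic cells outside the gate, and its call was lost with 4 or 5 gate genes required.

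**Figure D1:**
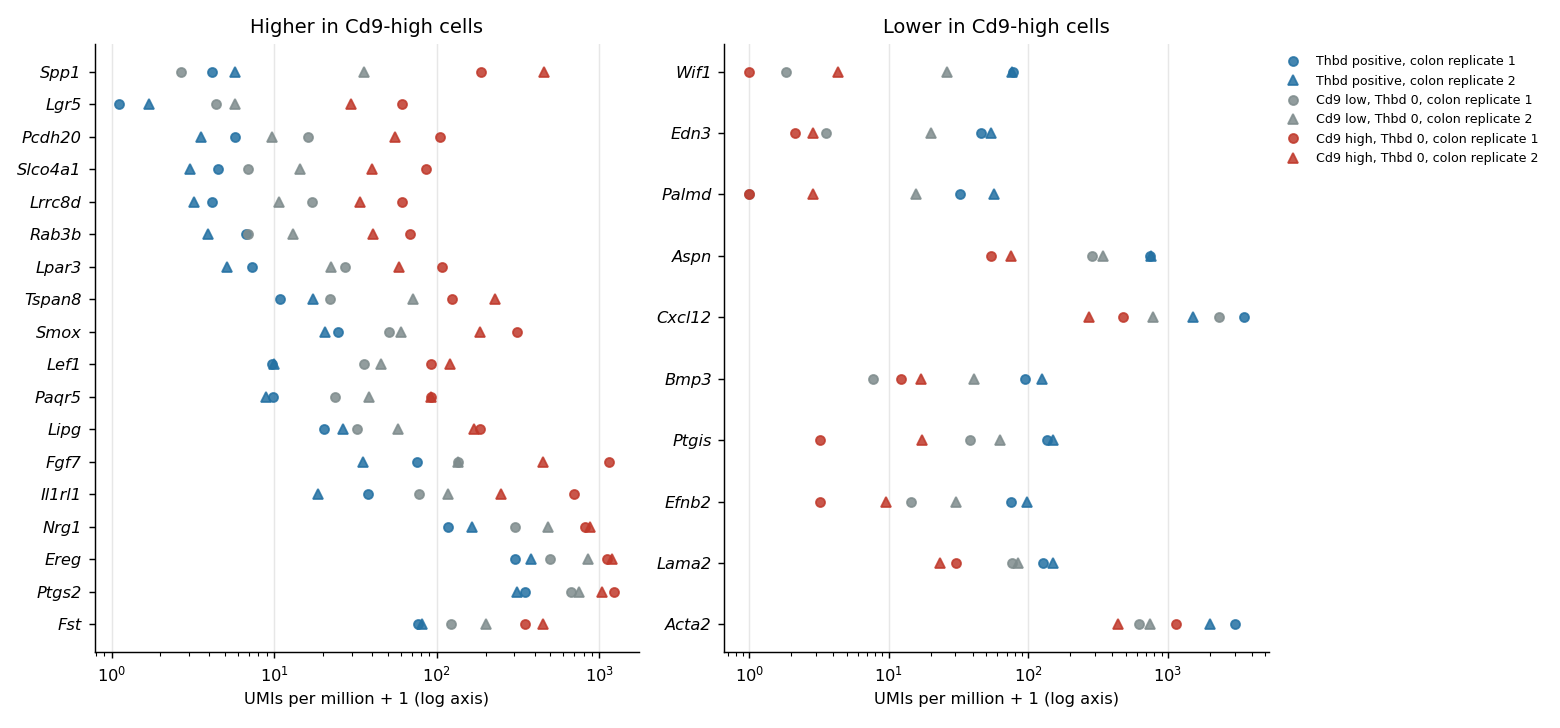
CPM plus 1 (log axis) of genes higher (left) and lower (right) in Cd9hi cells, for 3 classes of colonic gate cells in each library (circles, replicate 1; triangles, replicate 2; no error bars, 1 value per class and library). The genes on the left are highest in Cd9hi cells (red) in both libraries, and those on the right lowest, except that Bmp3 and Acta2 of replicate 1 are lower and Palmd of replicate 1 is also at 0 in Cd9lo Thbd- cells (gray).

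The genes with the largest fall were nearly silent in Cd9hi cells. *Wif1*, a secreted WNT inhibitor, had 0 and 9 UMIs in Cd9hi cells (0 and 3.33 CPM) and was at 67.2 and 60.5 CPM in the other gate cells (-4.59 ± 0.31, edgeR adjusted p = 3.53e-08). *Edn3*, endothelin 3, a ligand for enteric neural crest cells, was at 1.12 and 1.85 CPM against 39.9 and 42.6 CPM, and *Palmd*, palmdelphin, at 0 and 1.85 CPM against 27.5 and 43.6 CPM. *Smoc2*, a matricellular protein, *Smtnl2*, a smoothelin-like protein, and *Cers6*, a ceramide synthase, had 0 UMIs in Cd9hi cells. Set against a floor of 3 counts over both libraries, they were at least 8.35-fold, 7.64-fold and 6.44-fold lower. *Sv2b*, a synaptic vesicle protein, had 3 UMIs and was 18.5-fold lower (95% counting interval 6.26 to 89.9). *Adam33*, a membrane metalloprotease, had 2 UMIs (20.5-fold lower, 5.62 to 170.2). *Hpse2*, *Hnmt*, *Alms1* and *Qprt* had 1 UMI each, with ratios from 21.4 to 30.5 and lower bounds from 3.78 to 5.41. Intervals and floors cover counting error only. In Cd9lo *Thbd*- cells of replicate 1, *Palmd*, *Cers6* and *Adam33* were at 0 CPM and *Wif1* at 0.844 CPM. In replicate 2 they were at 14.7, 1.66, 6.15 and 25.3 CPM. Against Cd9lo *Thbd*- cells, *Wif1*, *Edn3*, *Palmd*, *Cers6*, *Sv2b*, *Adam33*, *Hpse2* and *Qprt* were not called (edgeR adjusted p from 0.0716 to 0.530). *Wif1* was not called against *Thbd*+ cells either (edgeR adjusted p = 0.140). *Smoc2*, *Smtnl2*, *Alms1* and *Hnmt* were called against both.

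Growth factor genes changed in either direction in Cd9hi cells. Counts of this and of every list that follows are to be read beside the shares of all genes, 7.83% higher and 8.6% lower. The list held EGF and FGF family members together with *Igf1*, *Igf2*, *Hgf* and members of the VEGF, PDGF and angiopoietin families, and 20 of its 26 genes could be tested, of which 8 rose and 4 fell (40% and 20%, beside 7.83% and 8.6% of all genes), with a median log2 fold change of 0.55, beside -0.01 over all genes. *Nrg1* (chr8:31814551-32884029), neuregulin 1, a ligand of the epithelial ERBB3 receptor, was at 820 and 880 CPM in Cd9hi cells and at 139 and 259 CPM in the other gate cells (2.18 ± 0.20, edgeR adjusted p = 0.00297). *Ereg*, epiregulin, a ligand of the EGF receptor, was at 1120 and 1192 CPM against 327 and 519 CPM (1.52 ± 0.11). *Vegfa* rose from 54.9 and 136 to 126 and 262 CPM. *Areg*, amphiregulin, was at 216 and 189 CPM against 22.9 and 64.6 CPM and was not called (2.28 ± 0.74, edgeR adjusted p = 0.397).

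By contrast, *Btc*, betacellulin, another EGF receptor ligand, had 0 and 9 UMIs in Cd9hi cells and was at 18.4 and 18.9 CPM in the other gate cells. *Fgf10*, a relative of *Fgf7* that signals through the same FGFR2b receptor, was at 5.59 and 3.70 CPM against 34.5 and 21.4 CPM (-2.52 ± 0.28, edgeR adjusted p = 6.70e-07). *Igf1* was at 42.5 and 44.7 CPM against 127 and 109 CPM. The levels of *Fgf7* and *Fgf10* thus differed in opposite directions between the classes.

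Genes of prostaglandin metabolism rose in 7 and fell in 3 of 15 tests (46.7% and 20%), and the rises took in genes of synthesis, export and breakdown. *Pla2g4a*, cytosolic phospholipase A2, was at 556 and 496 CPM against 235 and 253 CPM, and *Ptgs1* (COX-1) at 651 and 477 CPM against 298 and 254 CPM. *Ptgs2* (COX-2) was at 1234 and 1044 CPM in Cd9hi cells and at 385 and 442 CPM in the other gate cells (1.49 ± 0.10, edgeR adjusted p = 1.51e-09). *Abcc4*, a transporter that exports prostaglandins, was at 105 and 103 CPM against 19.0 and 26.0 CPM (2.20 ± 0.13), and *Pla2g7*, which hydrolyses platelet-activating factor, at 451 and 221 CPM against 103 and 80.4 CPM. *Ptgis*, prostacyclin synthase, fell, from 123 and 122 to 2.24 and 16.3 CPM (-3.28 ± 0.42), as did the prostaglandin E2 receptor gene *Ptger4*, from 55.2 and 67.3 to 30.2 and 28.5 CPM. *Hpgd*, which breaks prostaglandins down, was at 402 and 183 CPM against 239 and 166 CPM (0.48 ± 0.12, edgeR adjusted p = 0.0122). The synthesis genes *Ptges2*, *Ptges3* and *Cbr1* were not called, with log2 values from -0.17 to 0.18. The call of *Ptgis* was lost with 4 or 5 gate genes required, with larger folds (-3.42 and -3.91).

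Ligands of the WNT family changed in either direction, and the inhibitors named here were lower. Of 17 tested genes of WNT ligands, R-spondins and inhibitors 3 rose and 6 fell, with a median of -1.31. The ligands *Wnt5a*, at 404 and 430 CPM against 197 and 231 CPM, and *Wnt5b*, at 170 and 155 CPM against 68.2 and 65.4 CPM, rose with log2 fold changes of 1.00 ± 0.10 and 1.32 ± 0.11, and both signal largely without β-catenin. The third rise was *Wnt6*, at 12.3 and 16.6 CPM against 5.22 and 7.31 CPM (1.25 ± 0.27, edgeR adjusted p = 0.00220). *Wnt10a*, too scarce to be tested, had 12 UMIs in Cd9hi cells and 1 in the other gate cells. *Wnt2b* and *Wnt2*, ligands of the canonical pathway, fell from 50.6 and 5.61 to 2.24 and 1.11 CPM and from 9.32 and 5.75 to 1.12 and 1.48 CPM. Besides *Wif1*, the inhibitor *Dkk2* fell, with 3 UMIs in Cd9hi cells (5.78-fold lower, 95% counting interval 1.93 to 28.4).

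Genes of BMP signaling moved in either direction, with 8 of 22 tested genes higher and 10 lower and a median of -0.28. *Bmp2*, a ligand of differentiating epithelium, was at 1983 and 1129 CPM in Cd9hi cells and at 668 and 647 CPM in the other gate cells (1.22 ± 0.19, edgeR adjusted p = 0.0245), a call that was lost with the size factors of DESeq2. *Fst*, follistatin, which binds activins, was at 348 and 452 CPM against 81.0 and 116 CPM (2.06 ± 0.10, edgeR adjusted p = 5.19e-12), and *Smad7*, an inhibitor induced by TGFβ and BMP, at 148 and 182 CPM against 51.2 and 108 CPM. *Bmp3*, a ligand that opposes other BMPs, fell from 82.6 and 99.1 to 11.2 and 15.9 CPM. Of the antagonists, *Chrd* (chordin) was at 8.95 and 2.22 CPM against 28.0 and 22.5 CPM, *Grem1* (gremlin 1) at 15.7 and 22.2 CPM against 115 and 64.6 CPM and *Nbl1* at 720 and 578 CPM against 2141 and 1441 CPM. *Gdf10* had 0 UMIs in Cd9hi cells and was at least 3.77-fold lower. *Bmp4*, abundant in both classes, was at 748 and 655 CPM against 909 and 849 CPM (-0.29 ± 0.09).

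Among cytokine genes 6 of 38 tested rose and 10 fell. *Tgfb1* was at 234 and 201 CPM against 66.7 and 84.9 CPM (1.54 ± 0.12, edgeR adjusted p = 3.62e-08), whereas *Tgfb2* was at 20.1 and 25.1 CPM against 64.1 and 72.8 CPM (-1.52 ± 0.15) and the coreceptor *Tgfbr3* at 33.6 and 19.6 CPM against 114 and 57.1 CPM. *Il11*, a cytokine of stromal repair, rose from 6.25 and 17.5 to 15.7 and 37.3 CPM, and *Il1r1*, the IL-1 receptor, from 54.8 and 92.0 to 108 and 172 CPM. *Il15* fell, from 28.1 and 12.5 to 3.36 and 5.18 CPM, while *Il1rn*, an IL-1 antagonist, was at 2.24 and 7.39 CPM against 1.64 and 2.13 CPM.

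Of 16 tested chemokine and scavenger receptor genes 7 fell and 2 rose, with a median of -1.01, and against *Thbd*+ cells alone 2 fell and 2 rose. *Cxcl12*, which attracts lymphocytes and other CXCR4+ cells, was at 472 and 272 CPM in Cd9hi cells and at 3375 and 1289 CPM in the other gate cells (-2.49 ± 0.17, edgeR adjusted p = 0.000397). *Cxcl10*, induced by interferon, was at 90.6 and 354 CPM against 266 and 782 CPM. *Cxcl14*, by contrast, was at 790 and 643 CPM against 399 and 311 CPM (1.05 ± 0.09). *Cxcl5* fell to 1 UMI in Cd9hi cells, and *Ackr4*, a scavenger of CCL19 and CCL21, was at 1.12 and 4.44 CPM against 8.60 and 9.65 CPM. *Cxcl10* and *Ackr4* were called neither against *Thbd*+ cells (edgeR adjusted p = 0.310 and 0.133) nor against Cd9lo *Thbd*- cells (0.192 and 0.0992). *Ccl11*, eotaxin, a gene of other colonic FB, was at 7.83 and 14.8 CPM against 338 and 88.3 CPM and was not called (edgeR adjusted p = 0.342). Interferon response genes fell in 13 of 25 and rose in 1 of 25 tests, among them *Isg15* (14.5 and 11.5 against 59.0 and 25.2 CPM), *Bst2* (57.0 and 73.9 against 186 and 154 CPM), *Ifit3* and *Ifit1*. With 5 gate genes required, *Cxcl12* and *Cxcl10* lost their call, and with 4 *Cxcl12* and *Ackr4* did, with a larger fold for *Cxcl12* under 5 (-3.26). *Ackr4* also lost its call with 5 and turned its sign (0.22).

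**Figure D2:**
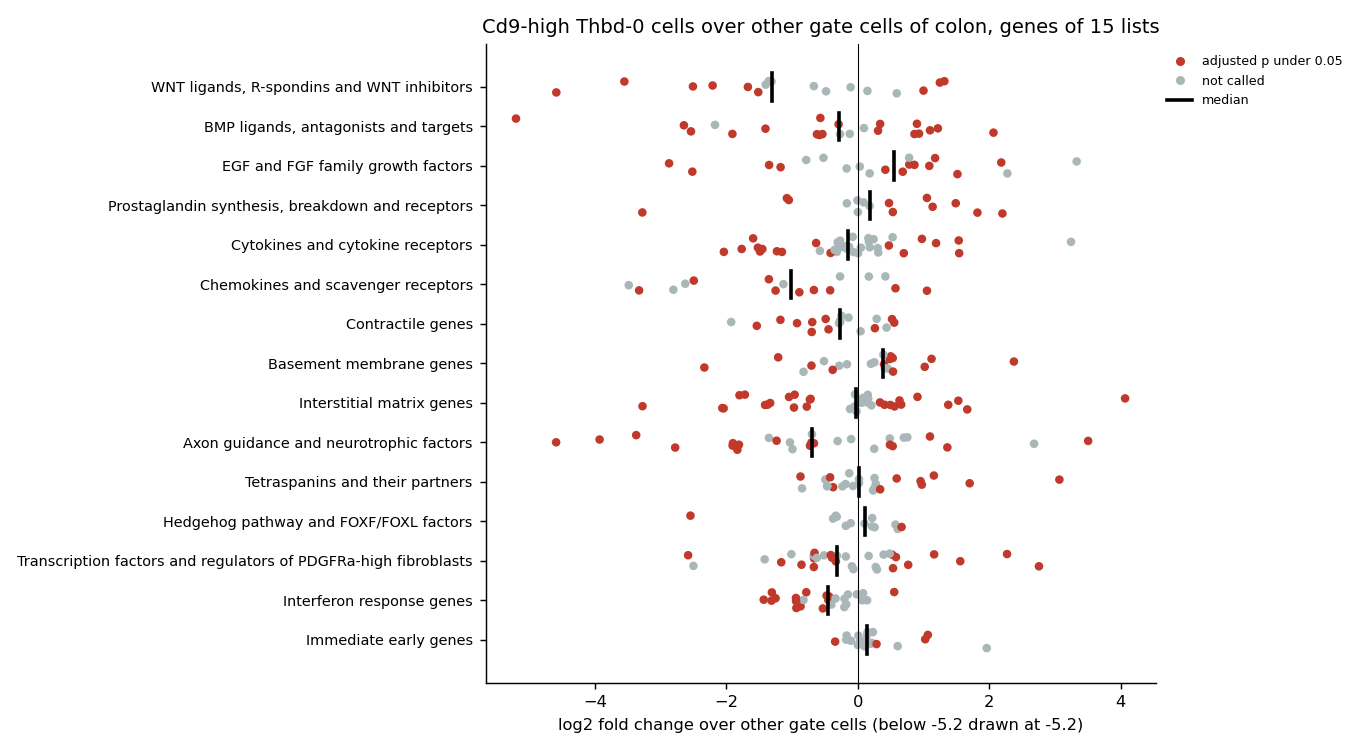
Log2 fold change of Cd9hi cells over the other colonic gate cells (edgeR, n = 2 libraries) for each tested gene of 15 lists, in red where the adjusted p was under 0.05, with the median of each list as a black bar. Medians run from -1.31 for WNT genes to 0.55 for the growth factor list (EGF, FGF and other families), and 13 of 25 interferon response genes were called lower.

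Matrix genes changed in either direction, and not all were called. Of 35 tested interstitial matrix genes 11 rose and 14 fell. Of the small leucine-rich proteoglycans 4 fell, *Aspn* (asporin) from 690 and 628 to 52.6 and 73.6 CPM (-3.27 ± 0.14, edgeR adjusted p = 7.34e-10), *Ogn* (osteoglycin) from 1771 and 1399 to 339 and 387 CPM, *Lum* (lumican) from 1047 and 772 to 255 and 243 CPM, and *Dcn* (decorin) from 5029 and 4523 to 1642 and 1954 CPM, whereas *Fmod* (fibromodulin) rose, with 22 and 10 UMIs in Cd9hi cells (24.6 and 3.70 CPM against 0.717 and 0.568 CPM). Of the elastic fiber genes *Eln* (elastin) fell from 211 and 208 to 45.9 and 71.7 CPM, and *Fbn2* (fibrillin 2) rose from 15.9 and 44.7 to 54.8 and 101 CPM (1.38 ± 0.13). *Tnc* (tenascin C), a matrix protein of tissue remodeling, rose from 703 and 336 to 2059 and 910 CPM, and *Col6a4* from 78.3 and 107 to 282 and 292 CPM, while *Fn1* (fibronectin) and *Col14a1* fell. With 5 gate genes required, the calls of *Aspn*, *Ogn* and *Lum* were lost (that of *Ogn* also with 4) and their folds were larger (-4.279, -2.90 and -2.35).

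Basement membrane genes rose in 8 and fell in 4 of 21 tests, with a median of 0.39, and the laminin α chains changed in opposite directions. *Lama5* was at 136 and 125 CPM in Cd9hi cells and at 18.5 and 31.2 CPM in the other gate cells (2.38 ± 0.18, edgeR adjusted p = 1.65e-05). *Lama2* was at 29.1 and 22.2 CPM against 121 and 130 CPM (-2.33 ± 0.15) and *Lama4* at 80.5 and 113 CPM against 217 and 250 CPM. *Col18a1* rose and *Hspg2* (perlecan) fell, with log2 fold changes of 1.02 and -0.70.

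Contractile genes were called higher in 3 and lower in 7 of 19 tests, but the class of cells compared mattered. *Acta2* was at 1139 and 440 CPM in Cd9hi cells and at 2734 and 1619 CPM in all other gate cells (-1.54 ± 0.12, edgeR adjusted p = 1.18e-05). It was at 3026 and 1994 CPM in *Thbd*+ gate cells and at 620 and 742 CPM in Cd9lo *Thbd*- gate cells, so that Cd9hi cells lay above the latter in replicate 1 and below them in replicate 2. Neither of these separate differences was called (edgeR adjusted p = 0.204 and 1). The call against all other gate cells was lost with a *Cd9* minimum of 2000 and with 5 gate genes required, with a larger fold under the latter (-2.97). *Tagln*, at 772 and 197 CPM against 1809 and 1286 CPM, was not called (adjusted p = 0.419, edgeR). *Myl9*, *Mylk*, *Des* and *Synm* fell by 0.69 to 1.18 on the log2 scale. *Myh11*, a marker of mature smooth muscle, was at 181 and 73.6 CPM against 125 and 130 CPM.

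Of the axon guidance and neurotrophic factors 5 of 28 tested genes rose and 12 fell. *Sema3e* was at 6.71 and 5.92 CPM against 0.512 and 0.568 CPM (3.50 ± 0.61, edgeR adjusted p = 0.000197), and *Sema3a* at 81.6 and 47.0 CPM against 6.55 and 11.4 CPM, which was not called (2.68 ± 0.49, edgeR adjusted p = 0.0792). The call of *Sema3e* was lost with 5 gate genes required and with a *Cd9* minimum of 2000. *Ntf3* (neurotrophin 3) was at 192 and 128 CPM against 70.6 and 54.8 CPM. *Efnb2* (ephrin B2) fell from 66.3 and 76.1 to 2.24 and 8.504 CPM and *Slit3* from 44.2 and 34.7 to 2.24 and 6.29 CPM, while *Sema3b* had 1 UMI. Tetraspanins other than *Cd9* and their partners rose in 7 and fell in 3 of 24 tests. *Cd82* was at 679 and 343 CPM against 195 and 118 CPM (1.70 ± 0.10, edgeR adjusted p = 7.17e-11), and *Tspan7* and *Tspan11* rose by log2 fold changes of 1.16 and 0.97.

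Among regulators, 8 of 33 tested transcription factor genes rose and 10 fell. Besides *Lef1*, these were *Ahr*, the aryl hydrocarbon receptor, at 197 and 163 CPM against 60.3 and 62.9 CPM (1.56 ± 0.11), its repressor and target *Ahrr* at 28.0 and 28.5 CPM against 6.04 and 6.03 CPM (2.27 ± 0.23) and *Twist2* at 51.4 and 35.9 CPM against 20.9 and 17.9 CPM. *Ebf1* fell to 2.24 and 5.92 CPM from 16.9 and 35.9 CPM, a call that was lost with 5 gate genes required. It was at 202 and 168 CPM in colonic cells outside the gate. *Foxf1*, a target of hedgehog signaling, rose (711 and 403 against 430 and 277 CPM). Immediate early genes, which also respond to tissue digestion, rose in 4 and fell in 1 of 22 tests. These shares were 18.2% and 4.55%, beside 7.83% and 8.6% of all genes. *Nr4a1* (2027 and 775 against 821 and 484 CPM) and *Ier3* (2002 and 2548 against 829 and 1468 CPM) had the largest folds.

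To learn which of the other gate cells Cd9hi cells differed from, they were compared with *Thbd*+ and with Cd9lo *Thbd*- gate cells in a fit of the 3 classes. Against *Thbd*+ cells, 1008 of 11465 genes were higher (8.79%) and 980 lower (8.55%). Against Cd9lo *Thbd*- cells, 345 were higher (3.01%) and 454 lower (3.96%). *Nrg1* was at 820 and 880 CPM in Cd9hi cells, 300 and 480 CPM in Cd9lo *Thbd*- cells and 116 and 164 CPM in *Thbd*+ cells, and it was called in both comparisons (log2 fold changes 2.67 and 1.12, edgeR adjusted p = 8.10e-10 and 4.41e-05). *Ptgs2* was at 666 and 749 CPM in Cd9lo *Thbd*- cells and 347 and 310 CPM in *Thbd*+ cells, and was likewise called in both. *Fgf7* was at 133 and 134 CPM and at 74.9 and 34.3 CPM in these classes, and was called against *Thbd*+ cells only (3.87, edgeR adjusted p = 0.0253, and 2.29, edgeR adjusted p = 0.123). *Il1rl1* was called in neither (4.09, adjusted p = 0.0896, and 1.89, adjusted p = 0.365, edgeR). *Aspn* was at 285 and 343 CPM in Cd9lo *Thbd*- cells and 746 and 751 CPM in *Thbd*+ cells and was called in both. *Nbl1* was lower than in *Thbd*+ cells (2340 and 1710 CPM) and was not called against Cd9lo *Thbd*- cells (704 and 815 CPM). Cells of the same gate with 0 UMIs of *Thbd* can include cells whose *Thbd* was not captured, and both comparisons share the Cd9hi sums.

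Cells with high *Cd9* and at least 1 UMI of *Thbd*, which the rule left out, numbered 128 and 289. Their levels lay nearer to those of the other gate cells. *Fgf7* was at 223 and 84.8 CPM in them, against 1139 and 447 CPM in Cd9hi cells, and at 43.4 and 25.6 CPM in *Thbd*+ cells with low *Cd9*. *Spp1* was at 18.0 and 22.8 CPM and *Il1rl1* at 111 and 37.2 CPM. *Nrg1*, at 166 and 239 CPM, was lower in them than in Cd9lo *Thbd*- cells in both libraries (300 and 480 CPM), as was *Ptgs2*, at 340 and 395 CPM. *Acta2* was at 2472 and 1608 CPM and *Aspn* at 486 and 548 CPM. The differences of these 4 groups were not tested.

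Among *Thbd*-negative gate cells most of these genes followed the level of *Cd9* on both sides of the threshold. From the cells with *Cd9* above 0 and below 500 CPM to those at 2000 and over, *Fgf7* went from 68.6 to 1655 CPM in replicate 1 and from 90.8 to 658 CPM in replicate 2, and *Nrg1* from 220 to 1094 and from 439 to 1059 CPM. *Aspn* went down over the same bins, from 247 to 8.97 CPM and from 345 to 22.4 CPM, and *Cxcl12* from 2486 to 233 CPM and from 883 to 117 CPM. *Spp1* stood at 3.62 and 65.5 CPM in the bin just below the threshold and at 176 and 287 CPM in the one just above it. *Acta2* went from 388 to 1458 CPM in replicate 1 and from 815 to 300 CPM in replicate 2, in opposite directions. The bins held 20 to 421 cells, with the fewest in the highest bin of replicate 1.

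**Figure D3:**
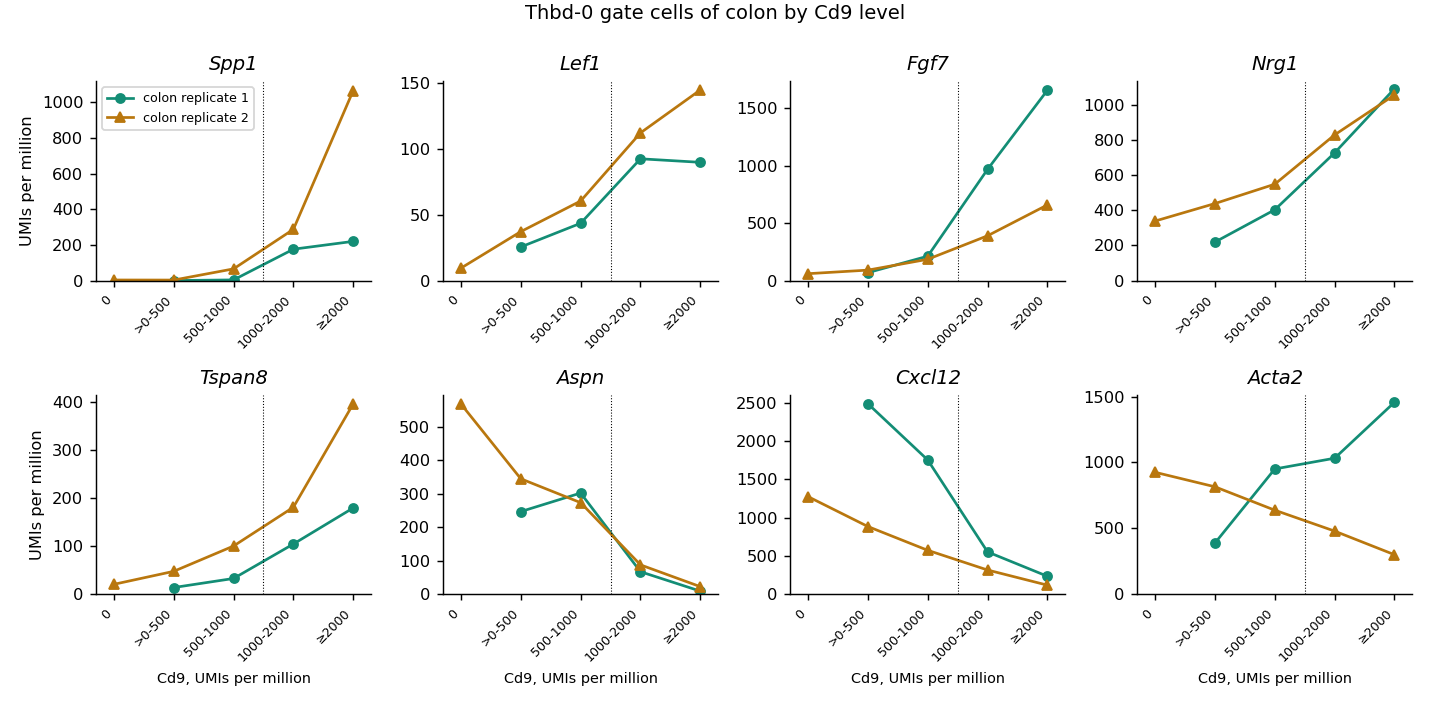
CPM of 8 genes in Thbd-negative colonic gate cells by the Cd9 level of the cell, for each library (bins with under 20 cells are left out; the dotted line is the threshold of 1000). Spp1, Lef1, Fgf7, Nrg1 and Tspan8 are higher above the threshold than below it and Aspn and Cxcl12 lower in both libraries, while Acta2 goes up in replicate 1 and down in replicate 2.

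Sums do not show how many cells carry a transcript, so each cell was thinned to 2000 UMIs and the share of cells with a UMI was counted (no Cd9hi cell of replicate 1 and 12 of replicate 2 fell below that depth). *Nrg1* was found in 63.4% and 66.1% of Cd9hi cells, *Ptgs2* in 56.3% and 64.6% and *Fgf7* in 60.6% and 43.8%. In colonic cells with none of the 6 gate genes, taken as the background, these shares were 1.51% and 2.48%, 3.89% and 18.7%, and 6.48% and 9.18%, at median depths before thinning of 5624 and 3765.5 UMIs against 12715 and 5029.5 UMIs in Cd9hi cells, with 63 and 733 background cells below the depth. *Il1rl1* was found in 32.4% and 23.9% of Cd9hi cells against 0% and 0.146% in the background, and *Ptprr*, a receptor tyrosine phosphatase gene, in 35.2% and 29.6% against 11.9% and 0.510%.

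*Spp1* and *Lgr5*, the largest rises among genes with at least 50 UMIs per library, were found in few cells. The share of Cd9hi cells with *Spp1* was 11.3% and 8.56% after thinning and 12.7% and 10.7% before it, and that with *Lgr5* was 5.63% and 4.67% after thinning and 16.9% and 9.14% before. The variance of *Spp1* counts over Cd9hi cells was 3.81 and 46.6 times their mean, beside 1.37 and 2.33 times for *Nrg1*. Thus Cd9hi cells were not uniform in *Spp1*, whose UMIs all came from 12.7% and 10.7% of them. *Acta2* was found in 21.1% and 28.0% of Cd9hi cells and in 67.2% and 74.3% of *Thbd*+ cells, against 22.02% and 44.2% of Cd9lo *Thbd*- cells. The variance of *Acta2* counts over Cd9hi cells was 31.1 times the mean in replicate 1 and 6.78 times in replicate 2. *Aspn* was found in 5.63% and 7.78% of Cd9hi cells, against 57.3% and 58.0% of *Thbd*+ cells, and *Wif1* in 0% and 0.973%, against 10.8% and 11.4%.

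**Figure D4:**
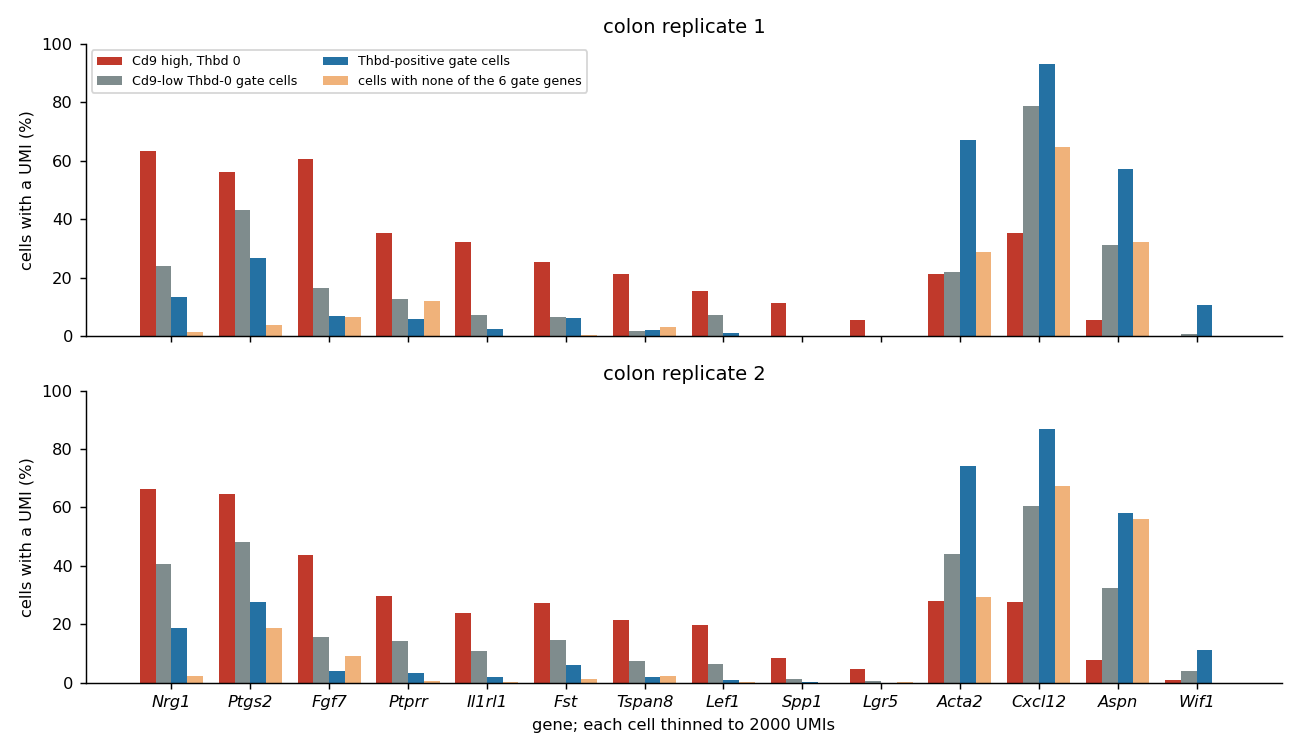
Percent of cells with at least 1 UMI of a gene after each cell was thinned to 2000 UMIs, in 4 classes of colonic cells (bars; upper panel, replicate 1; lower panel, replicate 2). Nrg1, Ptgs2 and Fgf7 are found in 43.8% to 66.1% of Cd9hi cells (red), Spp1 and Lgr5 in 4.67% to 11.3%, and Acta2, Cxcl12, Aspn and Wif1 most often in Thbd+ cells (blue).

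*Lgr5* and *Tspan8* are neighbors on chromosome 10, and the next gene along, *Ptprr*, rose too. These 3 genes were set side by side after their values had been seen. *Lgr5* (115450311-115587780, minus strand), *Tspan8* (115816832-115849893, plus strand) and *Ptprr* (116018213-116274932, plus strand) span 825 kb of mm10 and are consecutive among the genes tested. *Ptprr* was at 330 and 190 CPM in Cd9hi cells and at 45.1 and 45.6 CPM in the other gate cells (2.48 ± 0.17, edgeR adjusted p = 2.72e-05). Of the genes on either side, *Zfc3h1* and *Tmem19* rose by log2 fold changes of 0.50 and 0.59 (edgeR adjusted p = 0.00942 and 0.0221), and *Thap2*, *Rab21*, *Tbc1d15*, *Kcnmb4* and *Cnot2* were not called, with values from -0.57 to 0.33. How often neighbors rise together elsewhere was not tested.

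**Figure D5:**
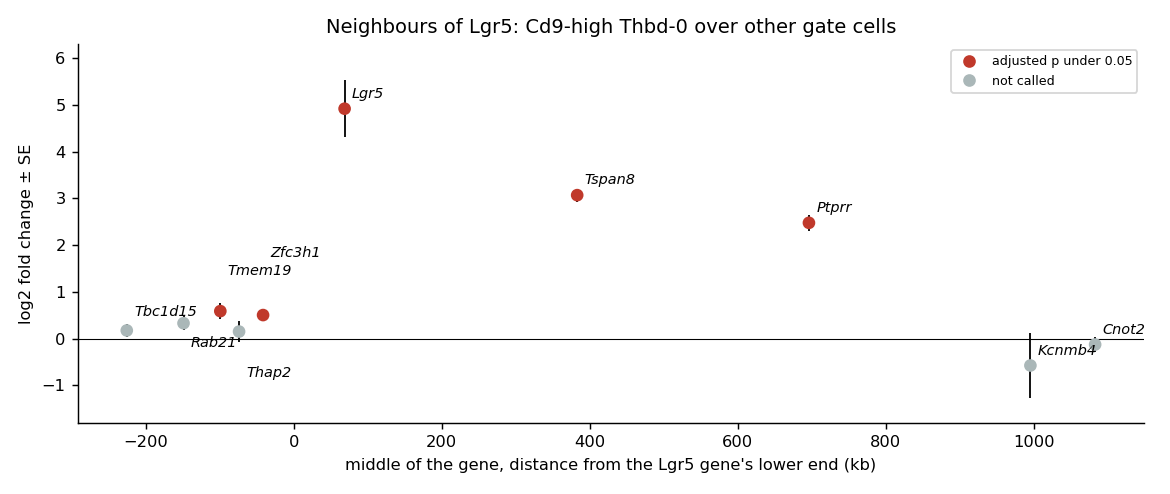
Log2 fold change ± SE (edgeR, n = 2 libraries) of Cd9hi cells over the other colonic gate cells for the 10 tested genes around Lgr5 on chromosome 10, by distance from the lower end of Lgr5 in kb. Lgr5, Tspan8 and Ptprr stand at 4.92, 3.07 and 2.48, and the other 7 genes between -0.57 and 0.59.

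Cd9hi cells were a larger share of the gate in colon than in small intestine. They made up 7.58% (exact 95% binomial interval 5.97% to 9.46%) and 14.7% (13.6% to 15.9%) of colonic gate cells, and 0.518% (1 of 193, 0.0131% to 2.85%) and 0.589% (8 of 1358, 0.255% to 1.16%) of small intestinal gate cells. The 2 intestines did not overlap, but with 2 libraries against 2 a two-sided exact permutation test cannot give a p below 0.3333, which is its value here. The colonic shares themselves differed between the libraries, and after thinning to 2000 UMIs they were 15.5% and 21.4%. The genes high in Cd9hi cells given next, which the rule did not use, were lower in small intestinal gate cells than in both colonic classes. *Lef1* and *Spp1* had 0 CPM in small intestinal gate cells of both libraries, *Fgf7* was at 2.83 and 5.36 CPM, *Il1rl1* at 0.566 and 1.79 CPM, *Fst* at 9.63 and 6.38 CPM and *Nrg1* at 13.6 and 14.3 CPM. Genes low in Cd9hi cells went either way. *Acta2* was at 4106 and 2374 CPM in small intestinal gate cells, above the 2734 and 1619 CPM of the other colonic gate cells. *Cxcl12*, at 2198 and 1084 CPM, and *Aspn*, at 160 and 275 CPM, lay below them (3375 and 1289 CPM, and 690 and 628 CPM).

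The 1 and 8 small intestinal cells that met the rule held 6610 and 14035 UMIs in all, too few for a comparison of genes. The split of small intestinal gate cells called 4 of 7906 genes (0.0506%), its difference from the colonic split 150 of 10888 (1.38%), and Cd9hi cells of colon against these cells 122 of 5514 at a log2 fold change beyond 1.5 (2.21%). Over all genes of the second of these the median log2 value was 5.65, so that its sign for a gene cannot be read against 0. Without either colon library the difference of the splits called 0 genes (152 and 124 at an unadjusted p under 0.05), with 10 called by DESeq2 on all libraries.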

How the data were processed

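Mesenchymal stromal cells of mouse small intestinal and colonic lamina propria were profiled by the authors in 4 droplet libraries. Which of them came from the 3′ and which from the 5′ kit is not given in the sources used here. Cell Ranger was run by the authors against mm10, in version 3.0.2 for replicate 1 and 3.1.0 for replicate 2. They deposited raw UMI counts for each gene and barcode over 28692 gene rows, from 14341443 to 52269372 UMIs per library.

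Counts were summed per class and library and tested with edgeR 4.0.16 in R 4.3.3 (filterByExpr, TMM, robust quasi-likelihood fit, library as a block, Benjamini-Hochberg adjustment over all tested genes). The SE is the log2 fold change over the square root of the F statistic. The 8 rule genes stayed in the library sizes. DESeq2 1.42.0 was an alternative. Doublets were kept, as the rule does. Scrublet (scanpy 1.11.5) marked 1 and 17 Cd9hi cells, and in small intestine replicate 2 it marked 1 of 15263 cells and so did not work. Fits were tested on simulated data.

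Members, the 15 gene lists and the 12 marker lists were chosen with earlier results of these data known. Genes named were the 12 largest rises and 12 largest falls called with the same direction in both libraries and at least 50 UMIs per library in the higher class (no predicted gene models), *Fgf7* and *Il1rl1*, and up to 4 called genes per list, with the most abundant gene not called where under 2 were. Other list genes and the levels of the 4 *Cd9* and *Thbd* groups, bins and neighbors were chosen after the values were seen. Of the marker lists, those for endothelial cells, pericytes, mesothelium and cycling cells each summed to at most 69.3 CPM in Cd9hi cells, and their genes were not called, except 1 pericyte gene that fell (*Rgs5*). Positions are of GENCODE vM21 (GRCm38). Some results of the gene lists are not reported here.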

Additional observations from a re-analysis of the deposited data

Results flagged for a closer look

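In the test of whether the difference between Cd9hi cells and the other gate cells was the same in colon and small intestine (the class by tissue term of edgeR), 10 of the genes named above passed, but the small intestinal side rests on 1 and 8 cells, in which these genes had 0 to 6 UMIs per library. The fitted term (colon minus small intestine, log2) was 4.22 for *Ptgs2*, 3.94 for *Wnt5a*, 3.46 for *Nr4a1*, 3.11 for *Bmp2*, 2.88 for *Ier3*, 2.86 for *Pla2g4a* and 1.99 for *Tnc*. It was -3.01 for *Aspn*, -5.31 for *Sv2b* and -7.89 for *Cers6*. All 7 positive values lie below the median of the term over all genes, 5.65, so that no direction is read from them. Without either colon library 0 genes passed (152 and 124 at an unadjusted p under 0.05, with 10 called by DESeq2 on all libraries). With the size factors of DESeq2, *Wnt5a*, *Bmp2*, *Pla2g4a* and *Tnc* were not called (edgeR adjusted p = 0.140, 0.243, 0.450 and 0.177). These values do not establish a difference between the intestines for any of these genes.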

How the results depend on the processing

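The share of Cd9hi cells among gate cells of colon replicates 1 and 2 was 12.5% and 26.5% with a *Cd9* minimum of 500, 2.13% and 3.47% with 2000, 15.5% and 21.4% with thinned cells and 9.73% and 12.1% with 5 gate genes (added after seeing the data). In small intestine it was 3.53% (replicate 2) with a minimum of 500, 0% and 0% with 2000, 1.91% (replicate 2) with thinned cells and 0% (replicate 1) without cells carrying other cell type markers. The other alternatives stayed within the counting interval.

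Against all other gate cells, 1070 genes were called with a *Cd9* minimum of 2000, 718 with thinned cells and 738 with DESeq2, and 364 to 623 without a colon library. Against *Thbd*+ cells the counts were 903 (thinned), 1021 (DESeq2) and 200 to 243 without a colon library. Against Cd9lo *Thbd*- cells they were 283 (4 gate genes), 160 (thinned), 510 (without cells carrying other markers), 466 (DESeq2) and 13 to 102 without a colon library. In these fits the lone colon library is assumed to vary like the others. With *Thbd*+ cells restricted to low *Cd9* (added after seeing the data) 2078 genes passed.

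The split in small intestine called 0 genes with a *Cd9* minimum of 500 or thinned cells (178 and 44 at an unadjusted p under 0.05), 37 with at least 1000 genes per cell, 2 with the size factors of DESeq2, 4 with DESeq2 itself, 137 in the fit of all 4 libraries and 45 to 152 without a small intestinal library. Its difference from colon called 72, 268, 0 (thinned, 386 at an unadjusted p under 0.05), 34 (22 higher and 12 lower, beside 143 and 7), 10 (DESeq2), 93 (no low-count filter) and 0 to 194 without a library. Colon against small intestine called 75 (4 gate genes), 51 (thinned), 63 (size factors of DESeq2, 52 higher and 11 lower, beside 114 and 8), 51 (DESeq2) and 0 to 11 without a library (715 to 784 at an unadjusted p under 0.05 where it was 0). A minimum of 2000 and the removal of cells with other markers left no cell in small intestine replicate 1, and these 3 comparisons could not be fitted. The replicate block moved the last count to 116, while differences between replicates 1 and 2 correlated between the intestines, over 5514 genes, at r = 0.226 for Cd9hi sums (1 and 8 cells in small intestine) and at r = 0.821 for the sums of all gate cells. The labels give no more than the number, and there are 2 pairs. Without library as a replicate block, 0 genes were called for Cd9hi cells against the other gate cells (942 at an unadjusted p under 0.05).

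Of 120 named calls, 120 held without scrublet doublets, 119 with the size factors of DESeq2, 95 with DESeq2, 108 of 118 with 4 and 97 of 112 with 5 gate genes, 76 of 93 with thinned cells, and 68 of 118 and 55 of 117 without colon replicates 1 and 2. Signs turned for *Klf6* (-0.39), *Cspg4* (0.11), *Upk1b* (-0.43) and *Lgals4* (-7.027) with a *Cd9* minimum of 2000, *Lgals4* (-0.68) and *Top2a* (1.61) with 500, *Ackr4* (0.22) and *Top2a* (1.19) with 5 gate genes, *Pi16* (1.02) with thinned cells, *Lgals4* (-0.062) without the block and *Myh11* (0.58 without colon replicate 2, -0.75 without replicate 1). The cause was not tested.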
